A study of Mus musculus with 18 samples.

Results

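Lcn2 and 9 genes of reactive astrocytes were followed in the ipsilateral dorsal horn of the spinal cord (DHSC) after a painful stimulus to the paw. The set holds Lcn2, Gfap, Vim, Serpina3n, Cd44, Osmr, S1pr3, Timp1, Steap4 and Cp, which are 10 of the 55573 genes in the deposited count table. Lcn2 was chosen by its higher counts in males than in females in these same samples, and the others as genes known to rise in reactive astrocytes. They were found by matching the symbol that the authors paired with each Ensembl ID, and all 10 passed the filter on low counts. All animals were C57BL/6J mice that had received 2% formalin in the left hindpaw, and tissue was taken 2 h later. Of the 18 samples, 6 are labelled male, 6 F1/proestrus and 6 F2/metestrus. F1 and F2 are the female classes whose quiet interval between the phases of the formalin response was short (F1) or long (F2), and each was sampled at the cycle stage in its name. The mice were 8 to 12 weeks old. Every group carries formalin and no naive DHSC is among these samples, so the values compare injected animals with each other and none of them is a response to formalin.

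Lcn2 encodes lipocalin 2, a secreted protein that binds iron-loaded bacterial siderophores and is made by neutrophils, epithelia and reactive glia. Astrocytes that meet injury or inflammation change shape and raise intermediate filaments, acute-phase proteins and cytokine receptors, a state called reactive astrogliosis, and Lcn2 is one of the genes that rise most in it. Part of this programme runs through cytokines of the interleukin 6 family, their receptors and STAT3, and part through NF-kB and C/EBP factors.

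Total counts ranged from 73590509 to 125724156 per sample, so that 3 counts corresponded to 0.0240 to 0.0407 CPM (counts scaled to a common library total), and none of the 10 genes was near this limit. By their numbers the libraries form 2 series. The first runs from 27 to 35 and the second from 188 to 196, and replicates 1 to 3 of every group are in the first. The sample F1/proestrus 5 stood apart. Its summed level of 7 sensory ganglion genes, which the DHSC should lack, was 418 CPM, against 2.85 to 4.96 CPM in every other sample. Several values that rest on this sample are therefore given with and without it, but not all. Astrocyte RNA, read as a sum, was abundant and similar between the groups. The summed level of 13 genes of resting astrocytes, such as Aldh1l1, Slc1a2 and Aqp4, was 6083 to 7089 CPM in F1/proestrus, 6519 to 7230 CPM in F2/metestrus and 6862 to 7097 CPM in males. Much of this sum is Aldoc, whose mean was 2883 CPM in females and 3123 CPM in males. Single genes were less even, and 4 of the 13 passed an FDR of 5% between the library series (edgeR), where 27% of all genes did. In bulk tissue, more cells of a type and more RNA per cell cannot be told apart.

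The stretches just before the transcription start of Lcn2, Steap4 and Cp are shown first, because Lcn2 and Steap4 had the highest male values relative to females and Cp had the steepest relation to Lcn2 for its error. They come from RefSeq on GRCm38.p6 and are printed in the direction of transcription, up to the first base of an annotated transcript with a UTR. Capitals mark matches to short motifs, searched on both strands. In GENCODE on GRCm38, Lcn2 lies at chr2:32384633-32388252 on the minus strand, Steap4 at chr5:7960457-7982213 on the plus strand and Cp at chr3:19957054-20009145 on the plus strand. The Lcn2 stretch is inside the annotated gene, because longer transcripts begin before it, and the other stretches end just before the gene.
Lcn2, chr2:32387798-32387989: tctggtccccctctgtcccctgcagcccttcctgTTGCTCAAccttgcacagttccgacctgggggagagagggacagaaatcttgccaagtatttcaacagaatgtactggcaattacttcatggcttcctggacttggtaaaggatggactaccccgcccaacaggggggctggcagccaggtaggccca
Steap4, chr5:7960222-7960456: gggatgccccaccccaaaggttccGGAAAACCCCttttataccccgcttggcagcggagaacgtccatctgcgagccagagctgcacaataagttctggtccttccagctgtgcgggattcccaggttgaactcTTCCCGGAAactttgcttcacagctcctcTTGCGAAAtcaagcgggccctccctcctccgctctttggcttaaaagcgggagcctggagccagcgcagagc
Cp, chr3:19956804-19957053: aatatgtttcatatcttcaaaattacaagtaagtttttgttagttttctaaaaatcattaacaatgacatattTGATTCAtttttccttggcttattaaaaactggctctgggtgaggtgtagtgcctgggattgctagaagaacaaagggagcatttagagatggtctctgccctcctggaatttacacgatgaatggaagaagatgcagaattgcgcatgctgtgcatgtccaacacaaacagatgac

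The Lcn2 stretch held 1 match to the C/EBP motif TTGCNNAA, which begins 216 bases before the RefSeq start site. Steap4 held matches to 3 motifs that do not overlap. The STAT motif TTCNNNGAA begins 116 bases before the start site, the C/EBP motif 87 bases and an NF-kB motif, read on the other strand, 226 bases. Cp held an AP-1 motif, TGANTCA, 177 bases before its start. Among 32851 promoter windows of 250 bases, 9.56% held the C/EBP motif, 7.02% the STAT motif, 4.11% the NF-kB motif and 6.75% the AP-1 motif. Over the 11 windows of the 10 genes, the C/EBP motif was in 3, the NF-kB motif in 3, the STAT motif in 1 and the AP-1 motif in 1. A palindromic glucocorticoid receptor motif was in the window of Serpina3n and in 0.387% of all windows. These are matches of letters and were not measured as binding.

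The comparison of males with all females is the one that singled out Lcn2, so its values are a description without a test. Lcn2 ranged from 1.96 to 2.42 CPM in F1/proestrus with a median of 2.30 CPM. It ranged from 1.86 to 4.39 CPM in F2/metestrus with a median of 2.55 CPM. In males it ranged from 2.61 to 17.7 CPM with a median of 8.98 CPM. All 6 males lay above every F1/proestrus sample, 5 of the 6 lay above every female, and male 6, at 2.61 CPM, lay below F2/metestrus 4, at 4.39 CPM. The males were also the most spread, with a coefficient of variation of 58.4%, against 7.27% in F1/proestrus and 32.9% in F2/metestrus. The fitted difference was 3.92-fold (log2 fold change 1.97, SE 0.25).

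**Figure D1:**
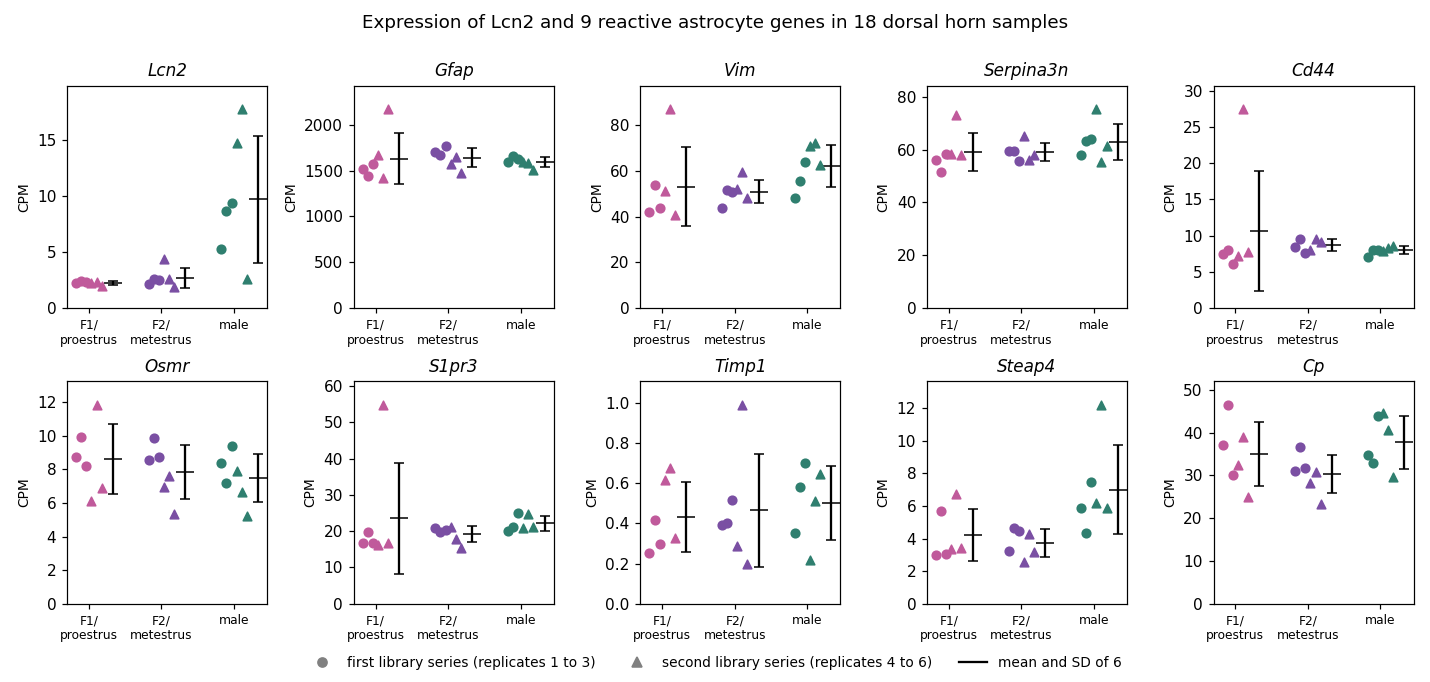
CPM of each of the 10 genes (vertical axis, linear from 0) in each sample, by group (horizontal axis); circles are the first library series, triangles the second, and black bars the mean and SD of 6 samples. Lcn2 spreads from 2.61 to 17.7 CPM in males, while Cd44 and S1pr3 each show 1 high sample, F1/proestrus 5 (27.4 and 54.7 CPM).

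Within the first library series the 3 males held 5.24 to 9.35 CPM of Lcn2 and the 6 females 2.15 to 2.60 CPM, without overlap. In the second series the males held 2.61 to 17.7 CPM and the females 1.86 to 4.39 CPM, which overlap through male 6. The log2 fold change was 1.69 (SE 0.15) in the first series alone and 2.18 (SE 0.43) in the second alone. It was 1.96 (SE 0.27) without F1/proestrus 5. Counts of calls in this comparison are given as description only, since its own values chose Lcn2, and nothing is read from them for that gene. Of the 10 genes, 1 passed an FDR of 5% (Lcn2, edgeR), where 0.197% of all 24862 genes tested did. At an unadjusted p under 0.05 these were Lcn2 and Steap4, where 9.72% of all genes were. None of the 10 had all males above all females, which 0.0724% of all genes had. DESeq2 called 2 of the 10, Lcn2 and Steap4, and 0.707% of all genes.

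Steap4, a membrane metalloreductase that reduces iron and copper, had the next largest difference. It ranged from 2.99 to 6.75 CPM in F1/proestrus (median 3.40 CPM), from 2.55 to 4.61 CPM in F2/metestrus (median 3.77 CPM) and from 4.35 to 12.2 CPM in males (median 6.03 CPM). The groups overlap, since 4 males lay below F1/proestrus 5, the female sample with the highest level. The log2 fold change was 0.81 (SE 0.20), or 1.76-fold, and 0.91 (SE 0.18) without F1/proestrus 5. The highest Steap4 and the highest Lcn2 were both in male 5. In that sample the summed level of 7 Schwann cell genes was also the highest, 2240 CPM against 913 to 1345 CPM in the other males, and its part in the Steap4 and Lcn2 values was not tested. Without male 5 the log2 fold change of Steap4 was 0.57 and that of Lcn2 1.70.

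Cp encodes ceruloplasmin, a copper-carrying ferroxidase that astrocytes also make in a membrane-bound form. Its median was 34.8 CPM in F1/proestrus, 31.0 CPM in F2/metestrus and 37.7 CPM in males, and its full range of 23.2 to 46.4 CPM over all samples was set by females at both ends. The log2 fold change between the sexes was 0.21 (SE 0.12). Its exons overlap those of Hps3 on the other strand, and the strand setting of the counting is not given in the sources used here, so reads of the pair may be mixed.

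The intermediate filament genes differed little between the sexes next to Lcn2. Gfap, the filament protein that defines astrocytes in histology, ranged from 1418 to 2167 CPM in F1/proestrus, from 1477 to 1763 CPM in F2/metestrus and from 1504 to 1659 CPM in males. The males lay inside the range of the females, and the log2 fold change was -0.037 (SE 0.067). Vim, which encodes vimentin, ranged from 40.7 to 86.9 CPM in F1/proestrus, from 43.8 to 59.3 CPM in F2/metestrus and from 47.9 to 72.0 CPM in males. Its log2 fold change was 0.26 (SE 0.13), and 0.35 (SE 0.086) without F1/proestrus 5, the sample with the highest Vim.

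Serpina3n, a serine protease inhibitor of the acute phase, had medians of 58.0, 58.8 and 62.3 CPM in F1/proestrus, F2/metestrus and males. Its log2 fold change was 0.089 (SE 0.066), and 0.12 without F1/proestrus 5, the F1/proestrus sample with the highest level. Timp1, an inhibitor of matrix metalloproteinases, was the lowest of the set, from 0.199 to 0.989 CPM over all samples. Its log2 fold change was 0.18 (SE 0.29), so that a difference of a size like that of Vim could not be resolved at this level.

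Among the cell surface genes, Osmr, the receptor subunit for oncostatin M, ranged from 5.24 to 9.37 CPM in males and from 5.34 to 11.8 CPM in females, with a log2 fold change of -0.14 (SE 0.14). Cd44, a hyaluronan receptor, was at 6.99 to 8.57 CPM in males and at 6.05 to 9.58 CPM in females other than F1/proestrus 5, which held 27.4 CPM. S1pr3, a receptor for sphingosine 1-phosphate, was at 20.045 to 24.9 CPM in males and at 15.3 to 21.1 CPM in females other than F1/proestrus 5, which held 54.7 CPM. Both genes are also known from sensory neurons or their satellite cells, and the same sample held the sensory ganglion RNA described above. With that sample the log2 fold change was -0.28 (SE 0.24) for Cd44 and 0.050 (SE 0.21) for S1pr3. Without it they were -0.018 (SE 0.084) and 0.27 (SE 0.076). The exons of S1pr3 overlap those of Gm32834 on the other strand, with the same limit as for Cp.

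**Figure D2:**
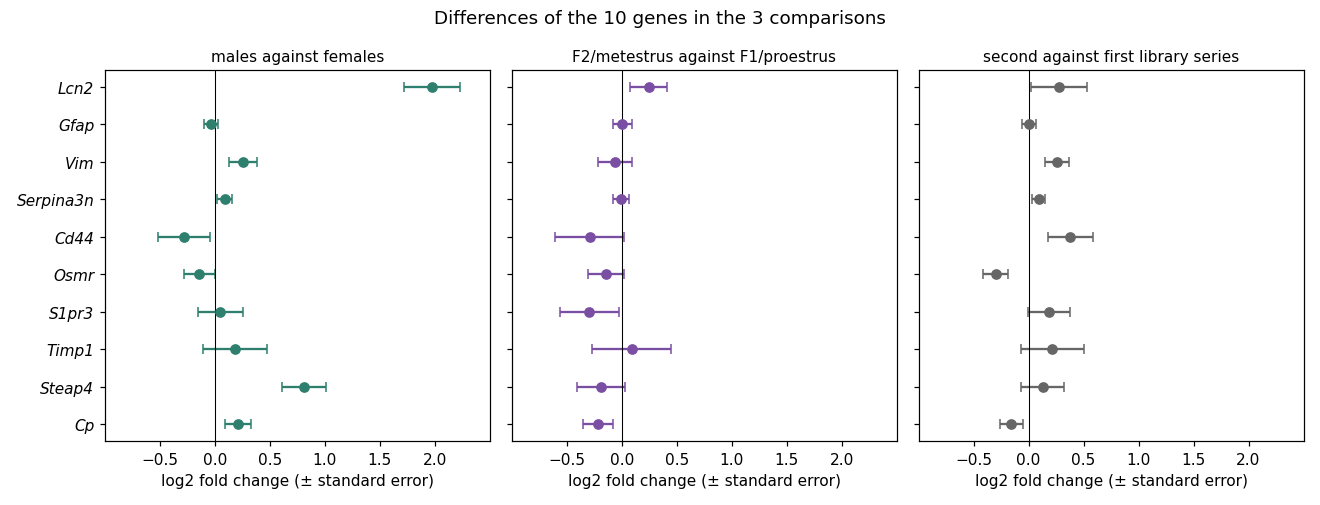
Log2 fold change (horizontal axis, points) with its standard error (bars) from edgeR for the 10 genes in 3 comparisons. Lcn2 at 1.97 and Steap4 at 0.81 stand out between the sexes, whereas between the female groups the 10 values lie from -0.30 to 0.25.

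Per kilobase of exon, the order of the levels over all samples was led by Gfap at 384 CPM per kb. Serpina3n followed at 29.2, Vim at 11.7, S1pr3 at 4.85 and Cp at 3.59 CPM per kb. Lcn2, at 1.86 CPM per kb, stood near Steap4 at 1.58 and Cd44 at 1.34, and Osmr (0.659) and Timp1 (0.525) were lowest. Lcn2 was a scarce transcript next to Gfap, also in males.

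The female groups were compared next, which asks whether the cycle stage and the interphase type go with the level of these genes. None of the 10 passed an FDR of 5% between F2/metestrus and F1/proestrus (edgeR), and 0% of 24042 genes did. DESeq2 called 2 of all genes and none of the 10. At an unadjusted p under 0.05 none of the 10 was called either, by edgeR or by DESeq2, against 2.48% of all genes by edgeR. Lcn2 was 1.19-fold higher in F2/metestrus (log2 fold change 0.25, SE 0.17, edgeR p adjusted over all genes = 0.99998). Without F2/metestrus 4, the female with the highest Lcn2, the log2 fold change was 0.052. The values for Cd44 (-0.29, SE 0.31) and S1pr3 (-0.30, SE 0.27) changed sign without F1/proestrus 5, to 0.26 and 0.15. Gfap differed by 0.0057 (SE 0.090) and Serpina3n by -0.0050 (SE 0.074), and Cp by -0.21 (SE 0.13). In a test of whether the effect of the female group differed between the library series, none of the 10 passed (edgeR, smallest adjusted p 0.99999). With 3 samples a cell its errors were wide, with a difference of the log2 fold changes of -0.35 (SE 0.16) for Gfap, -0.93 (SE 0.53) for Cd44 and -0.89 (SE 0.49) for S1pr3.

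The 2 library series differed in many genes, so the set was read against them. Between the second and the first series 27% of all genes passed an FDR of 5%, and none of the 10 did (edgeR), with 2 of them, Vim and Osmr, at an unadjusted p under 0.05, where 37.8% of all genes were. Osmr had a median of 8.73 CPM in the first series and 6.89 CPM in the second (log2 fold change -0.30, SE 0.12, edgeR adjusted p = 0.0641). Without F1/proestrus 5 the difference was -0.41 (SE 0.087) and Osmr passed, with an edgeR adjusted p of 0.00145. Vim had a median of 50.7 CPM in the first series and 59.3 CPM in the second (0.26, SE 0.11, edgeR adjusted p = 0.0809), and without F1/proestrus 5 the difference was 0.15 (SE 0.075, edgeR adjusted p = 0.164). For Lcn2 the difference between the series was 0.28 (SE 0.25), which was 0.095 without male 5 and 0.42 without male 6.

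Whether the other genes follow Lcn2 from sample to sample was tested with the log2 level of Lcn2 as a term in the model beside group and library series. The slope is the log2 change of a gene for each doubling of Lcn2. None of the 9 genes passed an FDR of 5% (edgeR), and 0% of 24861 genes did. DESeq2 called 39 of all genes and none of the 9. Only Cp was at an unadjusted p under 0.05, in edgeR and in DESeq2, where 2.79% of all genes were by edgeR. The slope of Cp was 0.22 (SE 0.078, edgeR unadjusted p = 0.0123, adjusted over all genes 0.99996), and 0.34 (SE 0.13) without male 6. Steap4 had a slope of 0.24 (SE 0.16), which was 0.015 without male 5. Osmr had 0.17 (SE 0.0997), Vim 0.12 (SE 0.092) and S1pr3 0.10 (SE 0.17). The slopes of Gfap (0.0021, SE 0.058), Serpina3n (0.045, SE 0.053), Cd44 (-0.022, SE 0.19) and Timp1 (-0.13, SE 0.26) lay, like that of S1pr3, within 1 standard error of 0. In total 7 of the 9 slopes were above 0, with a median of 0.10, where the median over all genes was 0.0014. This lean was not particular to the set. Above 0 were also 6 of 6 motor neuron genes (median 0.21), 7 of 7 Schwann cell genes (0.12) and 7 of 10 endothelial genes (0.083). Other lists went the other way, with 1 of 13 neutrophil genes and 4 of 11 dorsal horn neuron genes above 0.

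**Figure D3:**
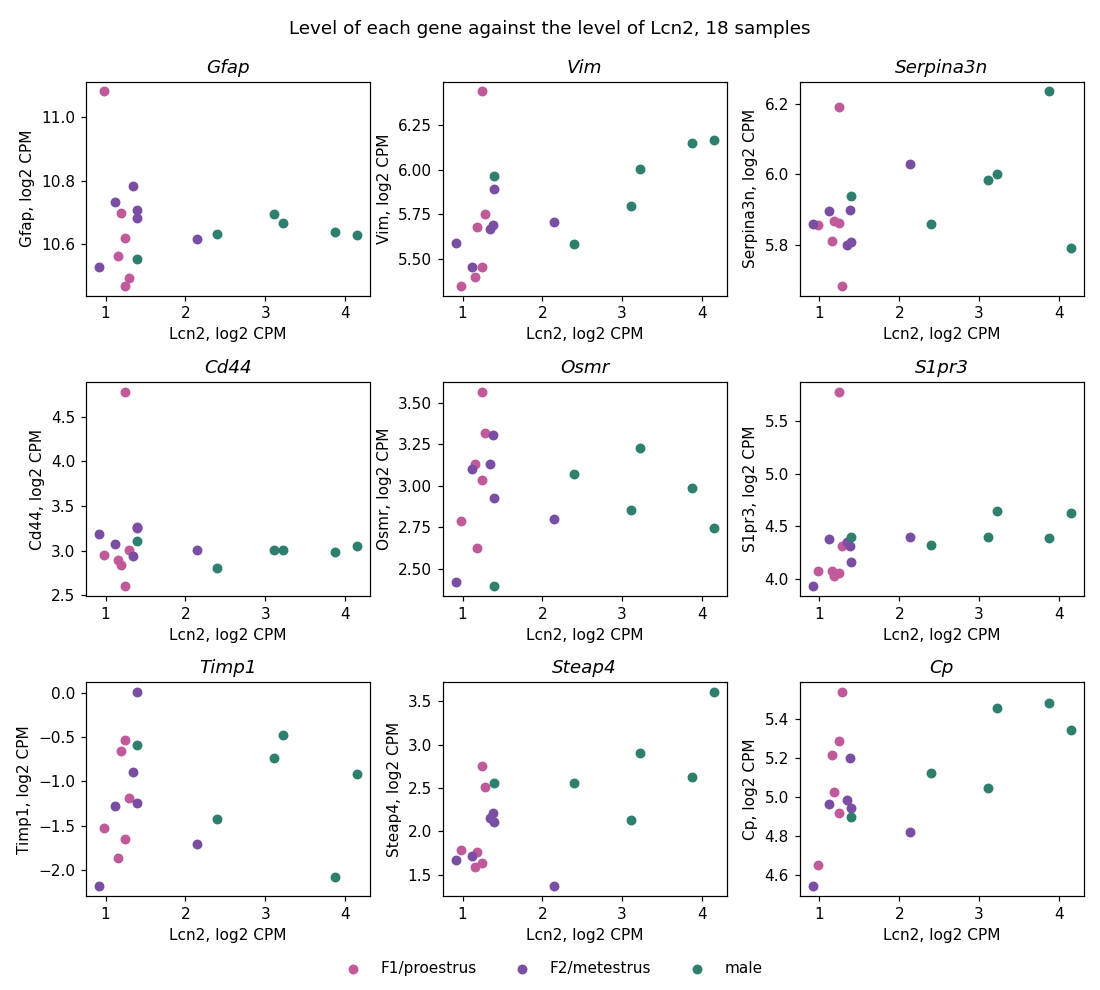
Log2 CPM of each of the other 9 genes (vertical axes, scaled to each gene) against log2 CPM of Lcn2 (horizontal axis), 1 point for each of the 18 samples, coloured by group. In the 6 males Cp and Lcn2 have a Pearson r of 0.81, but male 5, with the most Lcn2, has less Cp than males 3 and 4. Gfap in males spans only 1504 to 1659 CPM.

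Since most males had more Lcn2 than every female, correlations were computed within the 12 females and within the 6 males, 18 relations in all, and their permutation p-values were not adjusted. In males, Cp had a Pearson r of 0.81 (exact permutation p = 0.0486) and a Spearman rho of 0.77 (exact permutation p = 0.103). Without male 6 and male 5, the samples farthest from the median Lcn2, r was 0.70. In the same animals Vim had a rho of 0.83 (exact permutation p = 0.0583) and an r of 0.55 (exact permutation p = 0.247). In females, Vim had a rho of 0.70 (permutation p = 0.0141) and an r of 0.24 (permutation p = 0.360). Without F2/metestrus 4 and F2/metestrus 6 these were 0.73 and 0.47. Lcn2 varied little in most females, with 179 to 272 counts in F1/proestrus and a coefficient of variation of 7.27%. Counting error may therefore set part of the order of the females by Lcn2. The size of that part was not tested, and the limit also holds for slopes within females. Gfap had no clear relation, with a rho of -0.063 in females (permutation p = 0.852) and of 0.20 in males (exact permutation p = 0.714). Of the 18 relations, Vim in females and Cp in males each reached an unadjusted p under 0.05 by 1 of the 2 coefficients only.

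The genes most like Lcn2 were sought among 17762 genes with a mean of at least 1 CPM, after the group means had been subtracted from log2 CPM in the 18 samples. By Pearson r the first 5 were Gm8276 (0.90), Ly6a (0.77), Uap1l1 (0.75), Mir6937 (0.75) and Tfe3 (0.73). By Spearman rho they were Ptgfrn (0.76), Casq1 (0.75), Ly6a (0.74), H2-Q6 (0.73) and Gm8276 (0.73). The r of Mir6937 and Tfe3 rests on male 6. That sample held 1.36 CPM of Mir6937 and 15.3 CPM of Tfe3, against at least 3.35 and 30.9 CPM in every other sample. Without it, a choice made after seeing the data, r was 0.25 for Mir6937 and 0.21 for Tfe3, while it was 0.85 for Gm8276 and 0.85 for Ly6a. Ly6a, which encodes the surface antigen Sca-1 and is high in endothelium, was 47.0 CPM in male 4 and 51.5 CPM in male 5, the males with the most Lcn2, and 29.98 to 43.8 CPM in females. Gm8276 moved within a narrow range, from 1.73 CPM in male 6 to 2.58 CPM in male 4. Of the set itself, Vim stood highest by rho, at rank 16 (0.64), and Cp highest by r, at rank 178 (0.49), while Gfap was at ranks 7984 by r and 13452 by rho.

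Other genes of the reactive programme were counted between the sexes, where 0.149% of all genes were called higher and 0.0483% lower in males. None of 3 further pan-reactive genes, 12 genes raised in astrocytes by LPS and 12 raised by ischemia was called by edgeR or by DESeq2. By edgeR 1, 3 and 2 of them were at an unadjusted p under 0.05, where 9.72% of all genes were. Of these, Fkbp5, B3gnt5 and Cd14 had higher means in males than in females. Male and female means were 82.5 and 70.2 CPM for Fkbp5, 2.46 and 1.71 CPM for B3gnt5, and 6.45 and 4.99 CPM for Cd14. The other 3 were interferon-induced genes with negative values. Their log2 fold changes were -1.66 (SE 0.54) for the GTPase Iigp1, -1.17 (SE 0.48) for Gbp2 and -1.99 (SE 0.88) for the chemokine Cxcl10. Their edgeR adjusted p were 0.319, 0.431 and 0.481. All 3 had their highest mean in F2/metestrus. The means in F1/proestrus, F2/metestrus and males were 1.38, 5.28 and 1.05 CPM for Iigp1, 5.35, 17.0 and 4.96 CPM for Gbp2, and 0.238, 1.19 and 0.171 CPM for Cxcl10. The spread was wide, with an SD over the 12 females above their mean for each gene. Mean and SD were 3.33 and 3.65 CPM for Iigp1, 11.2 and 12.3 CPM for Gbp2, and 0.713 and 1.35 CPM for Cxcl10. C3, the complement component, was at 33.8 CPM in males and 39.1 CPM in females (-0.21, SE 0.10).

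The next list held 18 genes for cytokines, receptors and factors of the STAT3 and NF-kB routes. Il6, Tnf and Saa3 did not pass the filter on low counts for edgeR, with at most 14 counts in any sample. None of the other 15 was called by either tool. By edgeR 3 were at an unadjusted p under 0.05, where 9.72% of all genes were. These were Hp, which encodes haptoglobin (0.85, SE 0.28), Il6ra (0.24, SE 0.10) and Nfkbia, the NF-kB inhibitor (0.15, SE 0.070), with edgeR adjusted p of 0.318, 0.445 and 0.493. Stat3 itself differed by -0.087 (SE 0.082) and its target Socs3 by 0.26 (SE 0.12).

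Of 12 genes for Lcn2 receptors and iron handling, Hamp did not pass the filter on low counts for edgeR. None of the other 11 was called by either tool. Slc22a17, the proposed Lcn2 receptor, was at 713 CPM in males and 715 CPM in females. Fth1, the ferritin heavy chain, had the smallest unadjusted p of this list (0.20, SE 0.070, edgeR adjusted p = 0.349). It was the 1 gene of this list at an unadjusted p under 0.05 by edgeR, where 9.72% of all genes were. Of 12 genes that glucocorticoids induce, 1 was called higher in males by edgeR, where 0.149% of all genes were. Sult1a1, a sulfotransferase, was at 25.1 CPM in males and 17.0 CPM in females (0.56, SE 0.11, edgeR adjusted p = 0.0238). DESeq2 also called Cdkn1a, and so 2 of this list, where it called 0.707% of all genes. By edgeR 4 of the list were at an unadjusted p under 0.05 (Fkbp5, Cdkn1a, Sult1a1 and Nfkbia), where 9.72% of all genes were.

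Neutrophils also make Lcn2, so 15 neutrophil genes were read in the same samples. Ly6g and Cxcr2 did not pass the filter on low counts for edgeR, with at most 26 counts in any sample and 0 in some. DESeq2, run without that filter, had Cxcr2 at an unadjusted p under 0.05 between the sexes. Of the other 13, the granule peroxidase Mpo was called higher in males (1.37, SE 0.25, edgeR adjusted p = 0.0161), 12 had a positive difference, and 12 were at an unadjusted p under 0.05, where 9.72% of all genes were. DESeq2 called 3, Mpo, S100a9 and Retnlg, where it called 0.707% of all genes. The median log2 fold change of the 13 was 1.17, where that of all genes was -0.0013. Their summed level was 20.6 to 31.9 CPM in F1/proestrus, 24.9 to 33.9 CPM in F2/metestrus and 29.6 to 53.3 CPM in males. Much of this sum is Mmp9, whose mean was 13.7 CPM in males and 15.4 CPM in females, and which is also made by other cells. Within groups the order was different. Male 1 had the highest summed level, 53.3 CPM, with 5.24 CPM of Lcn2, whereas male 4, with 14.7 CPM of Lcn2, had 29.6 CPM, the lowest of the males. Without Mmp9, a sum chosen after seeing the data, male 1 was still highest, at 40.5 CPM, and male 4 still lowest of the males, at 11.8 CPM. The slope on Lcn2 was below 0 for 12 of the 13, with a median of -0.38, and none was called by edgeR or DESeq2. At an unadjusted p under 0.05 were 1 of the 13 by edgeR (Ngp) and 3 of the 15 by DESeq2 (Camp, Ngp and Ly6g). By flow cytometry after formalin, the paper reports that most LCN2-positive immune cells in the male pia mater were neutrophils. That is protein in cells of the pia mater, whereas the values here are RNA of DHSC tissue. The part of neutrophils in the Lcn2 values was not tested beyond these values.

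**Figure D4:**
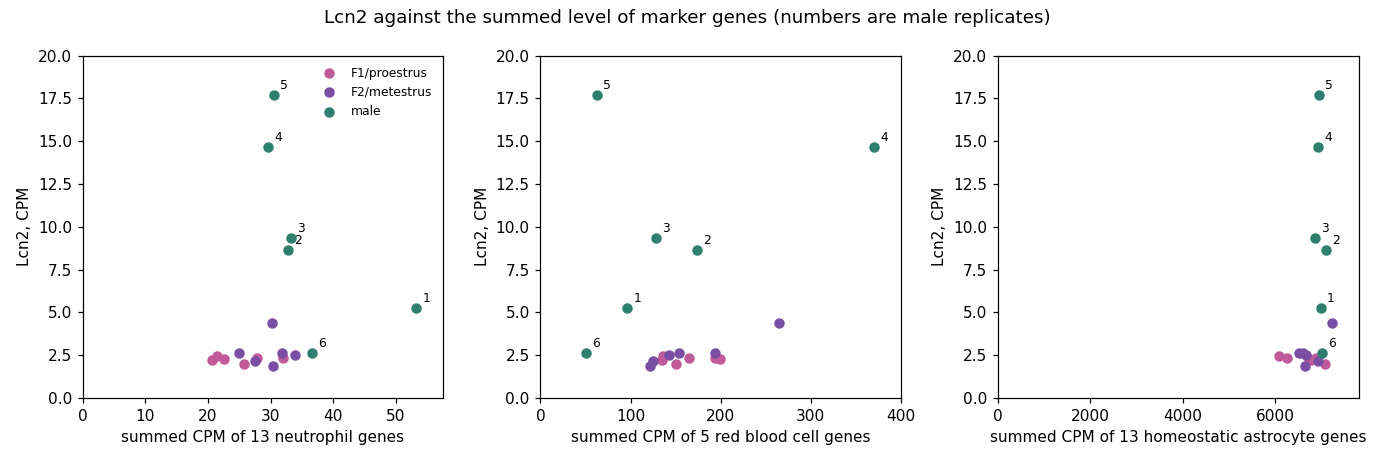
CPM of Lcn2 (vertical axis) against the summed CPM of 13 neutrophil genes, 5 red blood cell genes and 13 homeostatic astrocyte genes (horizontal axes), 1 point for each of the 18 samples, with male replicate numbers. The males with the most Lcn2, 4 and 5, have 29.6 and 30.6 CPM of the neutrophil genes. They lie far apart on the red blood cell axis (371 and 62.3 CPM).

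Blood in the tissue was read from 5 genes of red blood cells, chiefly haemoglobins. Their summed level was 135 to 199 CPM in F1/proestrus, 122 to 265 CPM in F2/metestrus and 50.7 to 371 CPM in males. None was called between the sexes by edgeR or DESeq2, and none was at an unadjusted p under 0.05. Their slopes on Lcn2 were all above 0, with a median of 0.75. All 5 were at an unadjusted p under 0.05 by edgeR, where 2.79% of all genes were, and by DESeq2, and none passed the FDR by either tool. Male 4 and F2/metestrus 4 held the most, and male 6, with the least Lcn2 of the males, held the least, but male 5, with the most Lcn2, held 62.3 CPM. Of 8 pericyte and mural genes, 6 had a positive slope, with a median of 0.070, 4 were at an unadjusted p under 0.05 by edgeR and none passed the FDR by either tool. The highest were the contractile genes Acta2 (slope 0.51, SE 0.12), Myh11 (0.38, SE 0.12) and Tagln (0.28, SE 0.086), with an edgeR adjusted p of 0.99996 each, and the lowest was Vtn (-0.080, SE 0.062). What these genes contribute to the Lcn2 values was not tested.

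Other cell types were read in the same way. Of 7 Schwann cell genes, Ncmap was called higher in males (0.67, SE 0.11, edgeR adjusted p = 0.00654), and the summed level was 613 to 1240 CPM in F1/proestrus, 640 to 948 CPM in F2/metestrus and 913 to 2240 CPM in males. Of 11 genes of dorsal horn neurons, Grp, which encodes gastrin-releasing peptide, was called higher (0.92, SE 0.15, edgeR adjusted p = 0.00539). Every gene of both lists had a positive difference, with a median of 0.64 for Schwann cell genes and 0.27 for dorsal horn genes. By edgeR 6 and 8 of them were at an unadjusted p under 0.05, where 9.72% of all genes were. DESeq2 called 4 of the Schwann cell genes and 2 of the dorsal horn genes, against 0.707% of all genes. Of the sensory ganglion genes none was called, with a median of -4.68 that F1/proestrus 5 sets. None of 10 microglia genes, 10 endothelial genes, 8 pericyte and mural genes, 10 meningeal fibroblast genes, 7 ependymal genes or 6 motor neuron genes was called by edgeR, and DESeq2 called 2 of the microglia genes, Csf1r and Siglech. With the level of the homeostatic astrocyte genes as a further term, a model chosen after seeing the data, the slope of Cp on Lcn2 was 0.21 (SE 0.058) and that of Vim 0.12 (SE 0.069). With the 6 males alone they were 0.20 (SE 0.064) and 0.10 (SE 0.054), and in the 12 females alone 0.30 (SE 0.21) and 0.23 (SE 0.28). Whether the slopes differ between the sexes was not tested.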

How the data were processed

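RNA was sequenced from 18 DHSC samples. The authors deposited raw counts, without normalization, for 55573 Ensembl genes. Per the labels, these were made with Subread 2.0.3 on mm10, whereas the methods of the paper name another version and another library kit. A second deposited table holds the authors' own comparison by DESeq2 (fold changes and p-values), of which only the gene symbols were used. Replicates are separate samples, and p-values measure the spread between these samples. Library totals are given with the results, and limits of 3 counts cover counting error only.

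Genes with low counts were removed by filterByExpr at its default settings (count of at least 10, total of at least 15). TMM scaling and quasi-likelihood F-tests were run in edgeR 4.0.16 (R 4.3.3), with Benjamini-Hochberg adjustment over all genes and an FDR threshold of 5%. Log2 CPM used a prior count of 2. F2/metestrus and F1/proestrus were compared in the 12 females. Males were compared with all females without further terms. The library series was tested with group as a term, and the slope on Lcn2 with group and series as terms. DESeq2 1.42.0 was an alternative, beside its size factors with edgeR, no filter, each series alone, each female group alone, a replicate block, and leaving out each sample. Correlations used scipy 1.17.1, with 100000 permutations in females and exact permutation in males. The fits were also run on simulated data with planted effects. The planted slopes were steeper than any slope of the set, and simulated Lcn2 had counting noise only. Whether slopes of the size seen here would be found was not tested. Replicate numbers were to be read as pairs only if the deviations of every same-numbered pair correlated at over 0.1. Of 18 such pairs 9 did, and 1 did once the library series was taken out, so the samples were not paired.

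The 10 genes, the 17 gene lists and the tests were chosen with earlier results of these data known, and a list of sensory ganglion genes and 2 models of the slope were added later. The text names the 10 genes, the genes of these lists, and the 5 most like Lcn2 by each coefficient. Genes were placed by GENCODE release 21 of mouse on GRCm38, which held 55394 of the IDs. Promoter windows from RefSeq matched all 10 genes. Where a symbol had more than 1 ID, the ID with more counts was used.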

Additional observations from a re-analysis of the deposited data

Results flagged for a closer look

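In 6 of the 30 combinations of gene and group, the sample at one end lay farther from its nearest neighbour, as a share of the group's range, than Dixon's 95% limit, where chance gives about 1 in 20. In F1/proestrus, 4 of the 6 were the same sample, F1/proestrus 5, with the high sensory ganglion RNA. Its gap was 0.908 of the range for Cd44, 0.906 for S1pr3, 0.715 for Vim and 0.677 for Serpina3n. In the same group F1/proestrus 6 stood apart for Gfap, at 2167 CPM with a gap of 0.671. F2/metestrus 4 stood apart for Lcn2, at 4.39 CPM with a gap of 0.703, and it also held the most red blood cell RNA of the females, 265 CPM. No group of males stood out for any of the 10 genes.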

How the results depend on the processing

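Among 923 single-gene values under the alternatives, 6 newly passed the FDR where a test was made, all for Osmr or Vim between the series, and 0 reversed a call. No test is read between the sexes. There the log2 fold change was 1.69 to 2.18 for Lcn2 and 0.54 to 1.04 for Steap4 under the alternatives. It changed sign for S1pr3 (-0.10 to 0.27) and for Timp1 (-0.13 to 0.50). Between the library series, 2 of the 10 genes passed without the filter, 1 with DESeq2, and 0 to 1 with a sample left out, where Osmr passed without F1/proestrus 5 or male 4 and Vim without F1/proestrus 6. Between males and females, 2 passed with DESeq2, 2 with the replicate block, 0 in the second series alone, 0 against F2/metestrus alone and 1 to 2 with a sample left out, the second being Steap4 without F1/proestrus 5. These counts between the sexes describe Lcn2 and Steap4 and are not read as a test of Lcn2. The first series alone and F1/proestrus alone, with as many samples, kept 1, and the cause of the shifts was not tested. Between the female groups and on the Lcn2 slope, 0 passed under every alternative. Over all genes, males and females differed in 49 genes, in 167 with DESeq2, 148 with the replicate block, 134 with series as a term, 77 without F1/proestrus 5, 22 against F2/metestrus alone and 13 in the second series alone.

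With the replicate block, 0 genes of the set passed between the female groups, 0 on the Lcn2 slope and 2 between the sexes, and the slope of Cp was 0.047 and that of Vim -0.12. Same-numbered samples had correlated deviations of -0.105 to 0.228, 1 of 18 pairs was over 0.1 within series, and in 5 of 18 pairs the samples correlated best with their own number, so the numbers were not read as pairs. Depth limits Timp1 and the cytokines that did not pass the filter on low counts.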
